A study of Mus musculus with 10 samples.

Results

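The glutathione peroxidase (Gpx) genes were followed in the retinal pigment epithelium (RPE) of mice with and without added Nrf2. The members were taken by symbol: Gpx1, Gpx2, Gpx3, Gpx4, Gpx6, Gpx7 and Gpx8, which are 7 of the 47729 genes in the count table, and each symbol matched 1 Ensembl row. RNA was sequenced from 5 wild-type CD1 mice at postnatal day 40, with 2 libraries per mouse. The GFP control eye received AAV Best1 GFP alone, and the other eye of the same mouse, called the Nrf2 eye here, received AAV Best1 Nrf2 in addition to AAV Best1 GFP. AAV, an adeno-associated virus, carries a gene into cells, and the human Best1 promoter restricts expression to the RPE. The inserted Nrf2 is the human sequence. Both groups therefore carried a vector and GFP, the Nrf2 eyes carried more vector in total, and the vectors used different capsids (AAV8 for Nrf2, 7M8 for GFP). The retina had been removed, but choroid and other tissue of the eyecup can remain, so fewer cells of a type and less RNA per cell cannot be told apart in these bulk values.

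Glutathione peroxidases use glutathione to reduce hydrogen peroxide and organic peroxides, and the oxidized glutathione is then restored by glutathione reductase with NADPH. Gpx1 is the abundant cytosolic enzyme, Gpx2 is best known from gut epithelium, Gpx3 is secreted and circulates in plasma, and Gpx4 reduces lipid peroxides within membranes and so guards against ferroptosis, a death driven by lipid peroxidation. Gpx6 is known from olfactory tissue, and Gpx7 and Gpx8 belong to the endoplasmic reticulum, where they act with protein disulfide isomerases. The RPE takes up outer segment membranes rich in easily oxidized lipids every day, and glutathione synthesis and use are under the control of Nrf2, a transcription factor.

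The family differs at its catalytic codon, which is shown here because it separates the members that need selenium from those that do not. The sequences are the coding strand of GENCODE M21 transcripts (GRCm38, mm10), each with 12 bases on either side, and capitals mark the codon that aligned with the in-frame TGA of Gpx1.
Gpx1: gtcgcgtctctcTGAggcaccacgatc
Gpx2: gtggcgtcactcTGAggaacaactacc
Gpx3: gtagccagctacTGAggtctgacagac
Gpx4: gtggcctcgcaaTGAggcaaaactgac
Gpx6: gtggcatccttcTGTggcctgacagct
Gpx7: gtagctagcgaaTGTggcttcacagac
Gpx8: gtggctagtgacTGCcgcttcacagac
Gpx1, Gpx2, Gpx3 and Gpx4 carried 1 in-frame TGA each, which is read as selenocysteine, while Gpx6, Gpx7 and Gpx8 had a cysteine codon, TGT or TGC, in its place and 0 in-frame TGA codons. The codon lies in coding exon sequence of every member. It is at chr9:108339451-108339453 in exon 1 of 2 of Gpx1 (plus strand), chr12:76795256-76795258 in exon 1 of 2 of Gpx2 (minus strand), chr11:54907256-54907258 in exon 2 of 5 of Gpx3 (plus strand) and chr10:80054737-80054739 in exon 3 of 7 of Gpx4 (plus strand). Gpx6 has it at chr13:21313777-21313779 in exon 2 of 5 (plus strand), Gpx7 at chr4:108403430-108403432 in exon 2 of 3 (minus strand) and Gpx8 at chr13:113045661-113045663 in exon 2 of 3 (minus strand).

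The libraries held 12298404 to 27310638 counts each. Nfe2l2, the mouse gene of Nrf2, was at 79.3 to 110 CPM (a gene's count scaled to the library total) in control eyes and at 267 to 414 CPM in Nrf2 eyes, where human reads could align to it. The 12 RPE markers together ran from 22100 to 45800 CPM in control and from 11000 to 29300 CPM in Nrf2 eyes, so the labelled cell type was present in all libraries, and the sum was lower in the Nrf2 eye of 5 of 5 mice, with 6 of the 12 called lower and 0 higher. The 10 macrophage and microglia markers went from 24.5 to 53.6 CPM in control eyes to 345 to 1860 CPM in Nrf2 eyes, and all 10 were called higher. The rod markers reached 18300 CPM in the control eye and 7150 CPM in the Nrf2 eye of mouse 2, against at most 2860 CPM in any other library. With the rod markers as a covariate, the log2 fold change was 1.39 for Gpx4 (adjusted p = 0.0106), which was still called, 0.47 for Gpx1 (adjusted p = 0.311) and 0.43 for Gpx2 (adjusted p = 0.739). The 8 cone markers (17.6 to 504 CPM in control and 15.4 to 122 CPM in Nrf2 eyes) and the 6 Mueller glia markers (2890 to 5270 and 1940 to 3310 CPM) also had a lower sum in the Nrf2 eye of 5 of 5 mice, though edgeR called 0 of the cone markers (3 were lower at an unadjusted p under 0.05, and DESeq2 called 1) and 1 of the Mueller glia markers, whose median log2 fold change was 0.37. Rlbp1 is in both the RPE and the Mueller glia list, so these sums are not independent. It was the 1 Mueller glia marker that DESeq2 called lower. The part of the macrophages and of the lower RPE, cone and Mueller glia marker sums was not tested, neither for the Gpx genes nor for the related genes described further on.

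To ask which members make up the family in these samples, which also hold RNA of other cell types, levels were compared per length. The unit was CPM per kilobase (kb) of exon. Gpx4 was the most abundant member in every library. In control eyes its level was 754.4 ± 226.5 CPM per kb (SD, n = 5), followed by Gpx3 with 279.1 ± 124.6, Gpx1 with 221.3 ± 52.07, Gpx8 with 56.97 ± 9.648, Gpx7 with 4.698 ± 1.303 and Gpx2 with 0.3023 ± 0.2567 CPM per kb. The ranges of neighbours in this order did not overlap, with the exception of Gpx3 (128.1 to 431.4) and Gpx1 (177.0 to 310.9), whose order was Gpx3 over Gpx1 in 4 of 5 control eyes. In Nrf2 eyes the order of the means was the same, with Gpx4 at 1711 ± 231.6, Gpx3 at 542.0 ± 298.2, Gpx1 at 312.6 ± 26.49, Gpx8 at 70.12 ± 11.34, Gpx7 at 4.348 ± 0.5954 and Gpx2 at 0.5416 ± 0.2063 CPM per kb, and Gpx3 exceeded Gpx1 in 3 of 5 eyes. With the longest transcript as the length in place of all exons, Gpx4 was at 1307 and 2965 CPM per kb and Gpx1 at 297.4 and 420.2 CPM per kb in control and Nrf2 eyes.

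Gpx6 had a count of 0 in all 10 libraries. Among 196121513 counts in all, this allows up to 0.0153 CPM, and in a single library between 0.11 and 0.244 CPM, for counting error only. Amplified reads are not independent molecules, so this holds for all such limits here. Gpx5, a member of the family outside the list, had 1 count in 1 library.

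**Figure D1:**
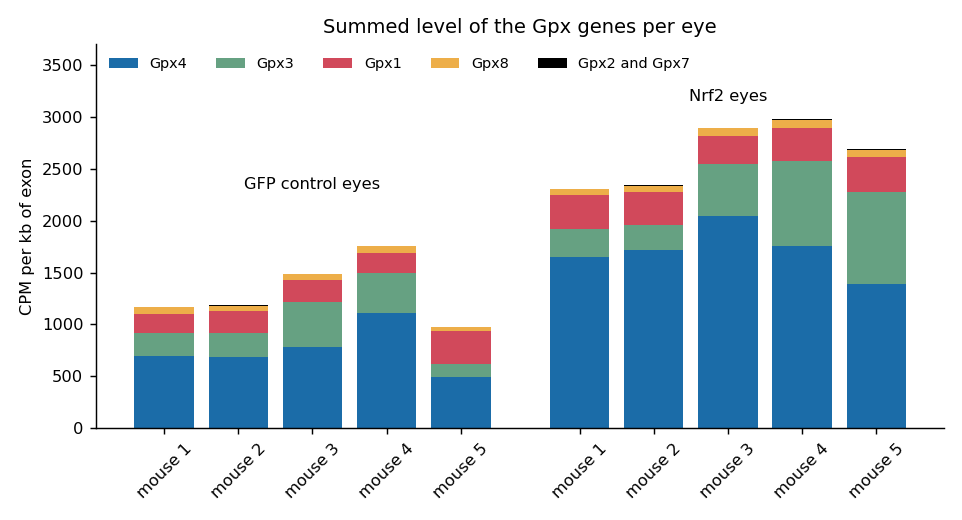
Stacked bars give the level of each Gpx gene in CPM per kb of exon for each eye, with the 5 GFP control eyes on the left and the 5 Nrf2 eyes on the right. The sum ran from 979.5 to 1758 in control and from 2306 to 2976 in Nrf2 eyes, and Gpx4 was the largest part of every bar.

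Summed over the family, the level was 1317 ± 307 CPM per kb in control and 2641 ± 309 CPM per kb in Nrf2 eyes (SD, n = 5 each), with a mean log2 ratio of 1.03 within mice. It was higher in the Nrf2 eye of 5 of 5 mice, and the lowest Nrf2 eye lay above the highest control eye. Gpx4 held 56.7% ± 5.26 of this sum in control and 65.3% ± 9.45 in Nrf2 eyes, a larger share in 4 of 5 mice. In mouse 4 its share went from 63.3% to 58.8%. The share of Gpx1 was smaller in the Nrf2 eye of 5 of 5 mice, from 11.1% to 31.7% in control and from 9.26% to 14.1% in Nrf2 eyes. That of Gpx8 was also smaller in 5 of 5 mice, from 3.54% to 5.78% in control and from 2.43% to 2.78% in Nrf2 eyes, as was that of Gpx7, with a mean of 0.37% in control and 0.165% in Nrf2 eyes. A share of the sum can be smaller at a higher level, and the mean levels of Gpx1 and Gpx8 were higher in Nrf2 eyes. The Gpx3 share spread from 10.4% to 32.7% among Nrf2 eyes.

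Nrf2 and control eyes were then compared gene by gene, with the mouse as a block. Of the 6 members with enough counts to test, 1 passed the threshold of an adjusted p-value under 0.05, and that was Gpx4, which rose. Of all 16362 genes tested, 6.33% were called, 3.6% as higher and 2.73% as lower in Nrf2 eyes. Gpx1, Gpx3 and Gpx4 were higher in the Nrf2 eye of 5 of 5 mice, as were 9.23% of all genes, and a ratio of the same sign in 5 of 5 mice, in either direction, was found for 20.2%. Gpx2 and Gpx8 were higher in 4 of 5 mice. Gpx4 was also the 1 member whose groups did not overlap, which held in either direction for 6.12% of all genes.

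Gpx4 (ENSMUSG00000075706, chromosome 10, 80047166 to 80056439) was measured at 1204, 1181, 1350, 1918 and 850.4 CPM in the control eyes of mice 1 to 5. In their Nrf2 eyes it was at 2846, 2966, 3517, 3019 and 2402 CPM. Each Nrf2 eye was above each control eye. On the log2 scale Gpx4 rose by 1.21 (SE 0.16), or 2.31-fold, with an adjusted p of 0.00734 in edgeR's quasi-likelihood test, to which adjusted values below also refer unless another tool is named. The log2 ratios of the single mice were 1.32, 1.31, 1.40, 0.59 and 1.41, so 4 mice lay close together, and mouse 4, whose control eye had the highest control level, showed the smallest rise. Gpx4 was called in all 13 alternative fits, with log2 fold changes from 1.16 to 1.39.

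**Figure D2:**
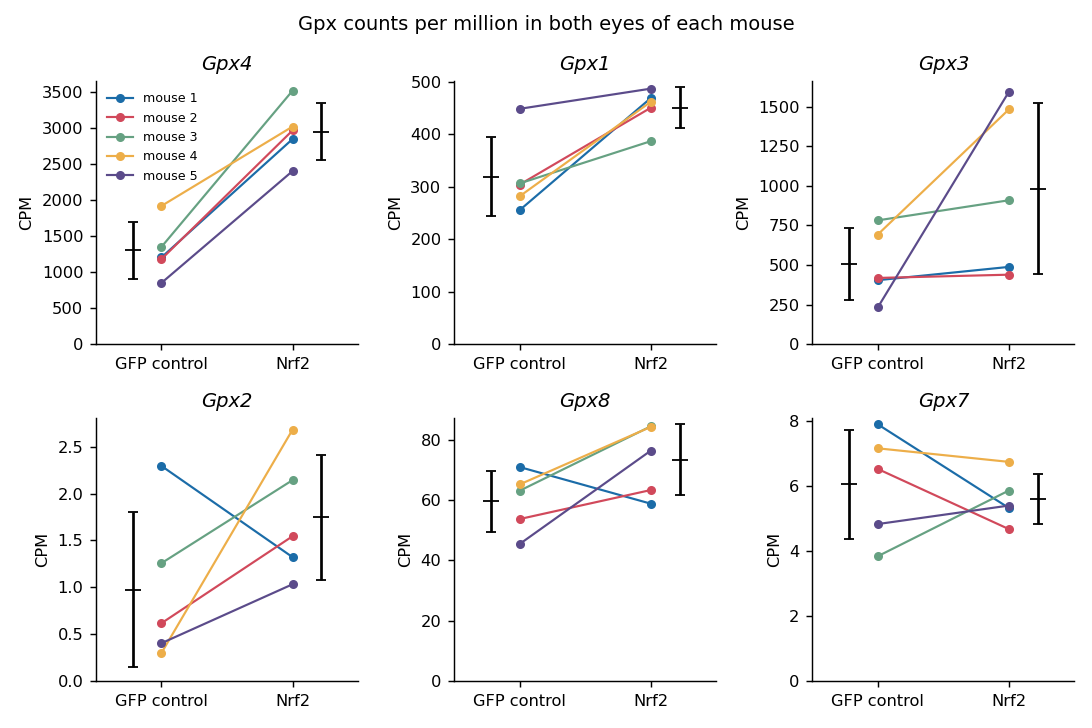
Each panel gives the CPM of a Gpx gene in the GFP control and the Nrf2 eye of each mouse, joined by a line, and the black bars give the mean and SD of the 5 eyes. The lines of Gpx4, Gpx1 and Gpx3 rise in all 5 mice, those of Gpx2, Gpx8 and Gpx7 cross, and Gpx6 is left out because it had no count.

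Gpx1 (ENSMUSG00000063856, chromosome 9, 108338903 to 108340343) was at 255.1, 303.8, 306.0, 281.5 and 448.0 CPM in the control eyes of mice 1 to 5 and at 468.4, 450.0, 386.4, 461.3 and 486.4 CPM in their Nrf2 eyes. The groups overlapped through the control eye of mouse 5, which was above the Nrf2 eye of mouse 3. Gpx1, with a log2 fold change of 0.51 (SE 0.15) and an adjusted p of 0.0979, did not pass the threshold. Ratios ran from 0.03 in mouse 5 to 0.95 in mouse 1. The call depended on the fit, since DESeq2 gave an adjusted p of 0.0182 (log2 fold change 0.51) and edgeR with skeletal muscle markers as a covariate 0.0239 (log2 fold change 0.55).

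Gpx3 (ENSMUSG00000018339, chromosome 11, 54902453 to 54910377) was at 404.3, 418.5, 782.1, 692.7 and 232.2 CPM in the control eyes of mice 1 to 5. In their Nrf2 eyes it was at 488.2, 439.1, 909.1, 1483 and 1594 CPM. Mice 1, 2 and 3 differed little between their eyes, with log2 ratios of 0.35, 0.05 and 0.24, whereas the ratio was 1.03 in mouse 4 and 2.69 in mouse 5. The log2 fold change of 0.83 (SE 0.48, adjusted p = 0.301) was within the spread between mice, and it was 0.42 without mouse 5 (adjusted p = 0.335). The SD of the 5 ratios, 1.08, was larger than that of 89.2% of all tested genes, where the median SD was 0.41.

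Marker sums of other cell types also differed among the Nrf2 eyes, and they were set beside Gpx3. The sum of 10 skeletal muscle markers was 11.6, 24.7, 458, 307 and 711 CPM in the Nrf2 eyes of mice 1 to 5, against 64.7 to 120 CPM in control eyes, and the 3 libraries with the most muscle RNA were those with the most Gpx3. The sum of 8 fibroblast markers was 408, 609, 678, 1380 and 1000 CPM in these Nrf2 eyes and 1040, 545, 496, 562 and 736 CPM in the control eyes, where mice 3 and 4, with the most Gpx3, had 496 and 562 CPM. The macrophage and microglia markers were highest in the same 2 eyes as Gpx3, with 1090 CPM in mouse 4 and 1860 CPM in mouse 5. The red blood cell markers, 995 and 2510 CPM, and the inner retina neuron markers, 1570 and 1190 CPM, were also highest in mice 4 and 5 among the Nrf2 eyes, while the endothelium markers, 52.1 to 58.0 CPM in mice 3 to 5, were lower than in mice 1 and 2 (90.2 and 119 CPM). The control eye with the most Gpx3, that of mouse 3, had 275 CPM of red blood cell and 807 CPM of inner retina neuron markers, and these sums and that of the macrophage and microglia markers were each among the lowest 2 of the control eyes. With the muscle markers as a covariate, the log2 fold change of Gpx3 was 0.78 (adjusted p = 0.231). With the rod markers it was 0.84 (adjusted p = 0.538). The part of the fibroblasts, macrophages, red blood cells and inner retina neurons was not tested.

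**Figure D3:**
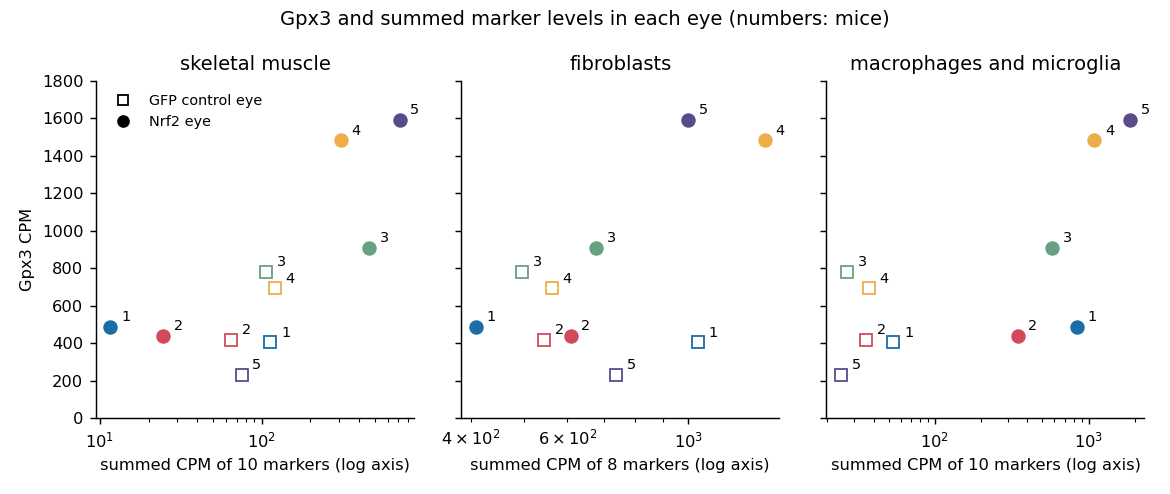
Gpx3 CPM is plotted against the summed CPM of skeletal muscle, fibroblast and macrophage or microglia markers (log x axes), with open squares for GFP control eyes, filled circles for Nrf2 eyes and the mouse number beside each. The Nrf2 eyes of mice 3, 4 and 5, at 909.1 to 1594 CPM of Gpx3, lie to the right in the muscle panel, at 307 to 711 CPM.

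Gpx2 (ENSMUSG00000042808, chromosome 12, 76792333 to 76795554) had few reads, with 5 to 45 counts in control and 17 to 57 counts in Nrf2 libraries. This was 2.30, 0.62, 1.26, 0.30 and 0.40 CPM in the control eyes of mice 1 to 5 and 1.32, 1.55, 2.14, 2.68 and 1.03 CPM in their Nrf2 eyes. The groups overlapped, and mouse 1 moved opposite to the other 4. Its log2 fold change of 1.05 (SE 0.55, adjusted p = 0.355) did not pass, and it was 0.65 without mouse 4, 1.57 without mouse 1 and 0.43 with the rod markers as a covariate. The whole gene lies within Fntb on the opposite strand, a gene at 7.93 ± 3.38 CPM in control and 8.04 ± 1.60 CPM in Nrf2 eyes (SD, n = 5 each), so counts of Gpx2 can hold reads of Fntb unless strand was used. The processed pseudogene Gpx2-ps1 had 4 counts, all in 1 library.

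Of the members of the endoplasmic reticulum, Gpx8 (ENSMUSG00000021760, chromosome 13, 113042753 to 113046410) was at 45.44 to 71.0 CPM in control eyes and 58.84 to 84.5 CPM in Nrf2 eyes. It was higher in 4 of 5 mice, with the exception of mouse 1, with a mean change of 0.29 on the log2 scale (SE 0.14) and an adjusted p of 0.296. The change was 0.44 without mouse 1 (adjusted p = 0.0843). Gpx8 lies within Cdc20b on the opposite strand, which had a count in 1 of 10 libraries. Gpx7 (ENSMUSG00000028597, chromosome 4, 108400390 to 108406961) was at 3.841 to 7.906 CPM in control and 4.677 to 6.749 CPM in Nrf2 eyes, and its groups overlapped nearly throughout. It was higher in 2 of 5 mice, and the mean log2 change of -0.09 (SE 0.21) had an adjusted p of 0.896. It changed sign, to 0.046, without mouse 1 or without mouse 2.

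**Figure D4:**
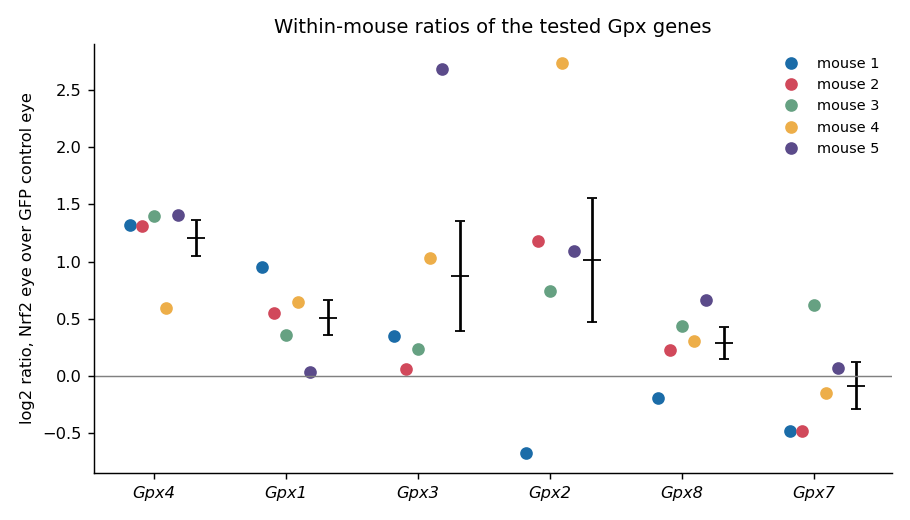
Points give the log2 ratio of the Nrf2 over the GFP control eye for each mouse, and the black marks beside them the mean and its SE over the 5 mice. Gpx4 clusters between 1.31 and 1.41 in 4 mice, while Gpx3 runs from 0.05 to 2.69 and Gpx2 from -0.68 to 2.74.

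Whether Gpx4 responded by a different amount than the other members was tested with the ratios of the 5 mice, in 5 pairs of genes. Gpx4 was the 1 member called in these same libraries, so a positive difference is no separate support for its rise. The log2 ratio of Gpx4 exceeded that of Gpx7 by 1.29 (SE 0.23, range 0.74 to 1.80) and that of Gpx8 by 0.92 (SE 0.20, range 0.28 to 1.51) in 5 of 5 mice (two-sided exact paired permutation test, p = 0.0625 each, adjusted p = 0.156). This is the smallest p that this test allows with 5 mice. No difference could pass the threshold by it, so the test cannot decide the question. The difference from Gpx1 was 0.70 (SE 0.25, range -0.06 to 1.38) and positive in 4 of 5 mice (exact p = 0.125, adjusted p = 0.208). The differences from Gpx3, 0.33 (SE 0.51, range -1.28 to 1.26, exact p = 0.625), and from Gpx2, 0.19 (SE 0.67, range -2.15 to 2.00, exact p = 0.6875), were smaller than the spread between mice, with an adjusted p of 0.688 for both. Those ranges are wide, and they do not show that these members responded alike. The difference from Gpx2 was -0.26 without mouse 1, 0.78 without mouse 4 and 0.08 without mouse 3. That from Gpx3 was 0.74 without mouse 5, 0.53 without mouse 4, 0.10 without mouse 2, 0.13 without mouse 3 and 0.18 without mouse 1.

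The pathway around the family was described from lists of related genes, starting with those that supply reduced glutathione. Of 24 genes for glutathione synthesis, turnover and NADPH supply, 9 were called higher and 1 lower, beside 3.6% and 2.73% of all tested genes. The median log2 fold change of the list was 0.53, against -0.01 for all tested genes. The largest was Gclc, the catalytic subunit of glutamate-cysteine ligase, which went from 90.1 ± 17.7 to 1974 ± 127 CPM (log2 fold change 4.46, SE 0.14, adjusted p = 5.02e-05), while Gsr, glutathione reductase, which restores the substrate of the Gpx enzymes, rose by 1.61 (SE 0.08). Taldo1, an enzyme of the pentose phosphate pathway and the most abundant of the list per length, rose by 1.02 (SE 0.05). The lowest was Chac2, which degrades glutathione in the cytosol. It fell from 24.0 ± 3.52 to 12.4 ± 1.99 CPM (log2 change -0.97, SE 0.11, adjusted p = 0.00733) and was lower in 5 of 5 mice.

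Other peroxide and superoxide removers included 5 higher genes of 17, Cat, Prdx1, Prdx6, Srxn1 and Txnrd1, beside 3.6% of all tested genes, and the median was 0.37 on the log2 scale. With edgeR 0 were lower, where 1 had an unadjusted p under 0.05 and DESeq2 called 0. Srxn1, sulfiredoxin, which repairs overoxidized peroxiredoxins, had the largest log2 fold change, 4.96 (SE 0.12, adjusted p = 5.02e-05), and Prdx1, the most abundant of the list per length, rose by 2.03 (SE 0.18, adjusted p = 0.00144). Prdx6, a peroxiredoxin that uses glutathione, rose by 1.81 (SE 0.15), and Cat, catalase, by 0.57 (SE 0.11, adjusted p = 0.0334). The call of Cat was lost without mouse 2, 3, 4 or 5, with log2 fold changes from 0.525 to 0.606 and adjusted p-values from 0.0801 to 0.117, and with the rod markers as a covariate (log2 fold change 0.549, adjusted p = 0.141). Txn2, the mitochondrial thioredoxin, was lowest, at -0.29 (adjusted p = 0.214).

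The genes needed to make selenocysteine, on which Gpx1 to Gpx4 depend, or to supply selenium were followed next. Of 15 genes, 1 was called higher and 1 lower, beside 6.33% of all tested genes in either direction. These are too few to set the list apart from that share, and its median was -0.13 on the log2 scale. Both called genes, Selenop and Lrp8, belong to selenium supply. Sephs1, Sephs2, Pstk, Sepsecs, Eefsec and Secisbp2 were not called (adjusted p from 0.409 to 0.956). Selenop, the selenium carrier of plasma, rose from 71.9 ± 6.26 to 136 ± 37.8 CPM (log2 fold change 0.87, SE 0.10, adjusted p = 0.00483). The macrophage and microglia markers were higher and the RPE marker sum lower in the same eyes, and their part in the values of Selenop and Lrp8 was not tested. Lrp8, a receptor that takes up this carrier, fell from 212 ± 63.0 to 119 ± 22.6 CPM, in 5 of 5 mice (log2 change -0.81, SE 0.16, adjusted p = 0.0191). The call of Lrp8 was lost without mouse 1 (log2 change -0.768, adjusted p = 0.0528), mouse 2 (-0.807, 0.0653) or mouse 3 (-0.795, 0.0619) and without the mouse block (-0.834, 0.0698), with changes close to that of all 5 mice. It was also lost with the rod markers as a covariate, where the change was -0.628 (adjusted p = 0.0525).

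Of 16 tested genes linked to lipid peroxides beside Gpx4, iron storage, heme breakdown and cystine uptake included, 4 were called higher and 1 lower. This stood beside 3.6% and 2.73% of all tested genes, and the list median was 0.08 on the log2 scale. Slc7a11 is 1 of the 4 higher genes and is counted in the glutathione list too. The other 3 are genes of iron storage and heme breakdown. Acsl4, Lpcat3, Alox12, Alox15, Aifm2 and Dhodh were not called (adjusted p from 0.0937 to 0.982). Hmox1, heme oxygenase, which frees iron from heme, rose by 6.12 (SE 0.22), the ferritin genes Ftl1 and Fth1 by 1.99 (SE 0.18) and 1.38 (SE 0.08), and the cystine transporter gene Slc7a11 by 3.52 (SE 0.15). Gch1, the first enzyme of tetrahydrobiopterin synthesis, fell from 65.8 ± 11.7 to 31.8 ± 7.35 CPM, in 5 of 5 mice (log2 change -1.07, SE 0.13, adjusted p = 0.00392). Ftl1 belongs to a family with many pseudogenes that could share its reads. For this list too, the macrophage and microglia markers were higher (345 to 1860 CPM against 24.5 to 53.6 CPM) and the RPE marker sum lower in the same Nrf2 eyes, and their part in these values was not tested.

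Of 11 genes for oxidative folding in the endoplasmic reticulum, where Gpx7 and Gpx8 act, edgeR called 0 in either direction, beside 6.33% of all tested genes, a share at which a list of this size could hold none, and the median log2 fold change was 0.24. Here 4 were higher at an unadjusted p under 0.05 and 0 were lower, and DESeq2 called 1, Qsox1, as higher. Qsox1, a sulfhydryl oxidase, was also the largest, at 0.67 (SE 0.20, adjusted p = 0.0654), and Ero1lb, an oxidase of protein disulfide isomerase, the lowest, at -0.24 (adjusted p = 0.466). Hspa5, the chaperone BiP and the most abundant gene of the list per length, was at 739 ± 57.4 CPM in control and 804 ± 121 CPM in Nrf2 eyes (adjusted p = 0.723).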

How the data were processed

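RNA of the RPE was amplified with a low-input kit and sequenced in 10 libraries from 5 mice. The authors aligned reads with STAR to mm10 with Ensembl release 91 transcripts and counted them per gene with featureCounts, and ran Salmon (0.8.2 in the submitters' processing notes) in parallel. Which of these gave the deposited counts, and whether strand was used, is not given in the sources used here. The deposited values are raw counts per gene, with 47729 genes and 0 columns of other samples. Symbols, positions and exon lengths came from GENCODE M21, which holds 47310 of the identifiers (99.1%). Promoters came from RefSeq (GRCm38.p6).

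Nrf2 and control eyes were compared with edgeR 4.0.16 in R 4.3.3 (filterByExpr, TMM, quasi-likelihood F test, mouse as a block) over 16362 genes, which held 99.8% of counts, with Benjamini-Hochberg adjustment and a threshold of 0.05. Log2 ratios of single mice are Nrf2 minus control log2 CPM (TMM scaled, prior count 2), and an SE is their SD over the square root of 5. CPM use the library total. Eyes were paired by the animal number in the labels. The labels mention more than 1 sequencing run but not which libraries each held, so runs were not compared. After the group means were removed, gene values of both eyes of one mouse had a Pearson's r of 0.186 to 0.707 in the 5 pairs, while eyes of different mice had r from -0.421 to 0.28 (median -0.0811), given as a description. Gpx4 ratios were compared with an exact sign-flip permutation test. Named genes are the members, other Gpx rows, overlapping genes, Nfe2l2, the largest, smallest and most abundant gene of each list, and the 2 genes nearest in pattern to each member (1 of these is not reported here); other list genes were named after their values were seen. The alternatives were no block, DESeq2 1.42.0, its size factors, no filter, a mean of at least 50 counts, thinning to 12298404 counts, rod or muscle covariates and leaving out each mouse. Members and lists were chosen with earlier results of these data known.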

Additional observations from a re-analysis of the deposited data

Results flagged for a closer look

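The log2 ratio of Gpx4 in mouse 4, 0.59, lay apart from those of the other 4 mice, which ran from 1.31 to 1.41. The gap made up 0.885 of the whole range, over the critical 0.71 for 5 values. The control eye of mouse 4 had 1918 CPM of Gpx4 against 850.4 to 1350 in the other control eyes, and its Nrf2 eye, at 3019 CPM, was within the range of the others. It was the 1 such value found in 26 groups of 5 values checked, where chance gives about 1.3. Without mouse 4, the log2 fold change of Gpx4 was 1.39.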

How the results depend on the processing

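In the fit with no replicate block, 755 genes were called in place of 1036 (687 of them shared). It changed no call of a Gpx gene, but the 1 lower gene of the selenocysteine list, Lrp8, was lost (0 lower). DESeq2 called 1803 genes, 2 Gpx members (Gpx4 and Gpx1, 0.514), 2 lower genes of the selenocysteine list and 1 higher gene of the endoplasmic reticulum list. The rod covariate called 499 genes, and the muscle covariate 2 Gpx members (Gpx1, 0.55). The cause was not tested for any of these. Leaving out each mouse in turn gave 584 (without mouse 2) to 857 genes, 613 without mouse 4 and 683 without mouse 5, with fewer samples in each. It gave 0 to 1 lower genes of the selenocysteine list. The Gpx7 log2 fold change ran from -0.21 to 0.046, positive without mouse 1 or mouse 2, and was -0.281 (adjusted p = 0.589) when libraries were thinned to the smallest. The difference of Gpx4 from Gpx3 ran from 0.102 to 0.737 and the difference of Gpx4 from Gpx2 from -0.26 to 0.777. Gpx2, Gpx3 and Gpx8 kept a positive fold change without a call in every alternative fit that tested them. Gpx2, below a mean of 50 counts, was not tested under that filter. A prior count of 0.5 changed no direction of the Gpx4 differences, and that from Gpx2 was 0.094 in place of 0.192. At this depth, 12298404 to 27310638 counts, Gpx2 and Gpx6 limit what can be said.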

Other observations

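The genes whose levels ran most like each member over the 10 libraries were found by the root mean square difference of mean-centred log2 CPM. For Gpx4 these were Gm17586 (0.13) and Tent5c (0.141), both called higher, with log2 fold changes of 1.23 and 1.24. For Gpx1 they were Atpif1 (0.067), an inhibitor of the mitochondrial ATP synthase, and Tnks1bp1 (0.126). For Gpx3 the nearest were Il33, an interleukin (0.321), and Fmod, the matrix protein fibromodulin (0.332), for Gpx8 Nacc2 (0.087) and Timp2, an inhibitor of matrix proteases (0.089), for Gpx7 Gm17435 (0.126) and A930004D18Rik (0.133), and for Gpx2 Nlrc5 (0.311). These are descriptions of the same libraries and follow the groups as well as the mice.

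The core of the antioxidant response element, TGACNNNGC read on both strands, was searched from 250 bases before to 50 bases after each RefSeq transcription start (GRCm38.p6). None of the 10 such windows of the 7 members, 4 of them starts of Gpx4, held it, against 12.4% of 32851 windows of all genes. This says only that these letters are not in these windows.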
